A study of Mus musculus with 4 samples.

Results

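The HSP70, HSP90 and DNAJ chaperone families were examined in cells of mouse draining lymph nodes after exposure to extracellular vesicles from induced pluripotent stem cells (iPSC EVs). The members were the genes whose symbols begin with Hsp90, with Hspa or Hspb and a number, with Hspd1, Hspe1 or Hsph1, or with Dnaja, Dnajb or Dnajc and a number. Pseudogenes were left out, as were 6 genes whose products work in the endoplasmic reticulum (Hspa5, Hsp90b1, Hspa13, Dnajb9, Dnajb11 and Dnajc3). This gave 67 of the 32285 features in the files. The rule reads gene symbols and no measured value. The members, and the other gene lists below, were chosen with earlier results of these data known.

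The comparison was of 4 libraries, 2 labelled Control and 2 labelled EV, each a 10x 3′ single-cell library of lymph node cells from wild-type C57BL/6 mice. The EV animals had received iPSC EVs, 100 µg in all, by injection under the skin. The study's methods give PBS injection for the Control animals and harvest after 5 days, while the sample labels give no treatment and a duration of 24 hours for the same libraries. The methods call the 2 libraries of a group biological replicates, and neither source says how many mice went into each. The nodes were kept in cold buffer and dispersed mechanically. The libraries held 50749656 to 70418672 unique molecular identifiers (UMIs, each marking 1 captured mRNA molecule), and 32715 of 34323 barcodes passed the filters on cells.

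Molecular chaperones hold unfolded or newly made proteins and help them reach their folded form. HSP70 proteins bind short exposed stretches of a client in a cycle driven by ATP. J-domain proteins (the DNAJ families) bring clients to HSP70 and start ATP hydrolysis, and the HSP110 proteins (Hsph1, Hspa4, Hspa4l) release the nucleotide so that the cycle can begin again. HSP90 receives clients such as kinases and steroid receptors from HSP70 at a late stage of folding, with the help of co-chaperones such as Stip1 and Ahsa1. Hspd1 and Hspe1 form the folding chamber of the mitochondrial matrix, and the small HSPB proteins keep aggregating proteins soluble. Some members are made at all times, whereas Hspa1a, Hspa1b, Dnajb1 and Hsph1 are classic targets of heat shock factor 1 (HSF1), which binds repeats of the unit GAA, in alternating orientation, in their promoters. In lymphocytes, chaperone transcripts also rise when cells become activated and make more protein.

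Cells were assigned to 4 gates by UMIs of lineage genes that are not members. B cells carried Cd79a and no Cd3e, CD4 T cells Cd3e and Cd4 but neither Cd8a nor Cd79a, CD8 T cells Cd3e and Cd8a but neither Cd4 nor Cd79a, and macrophages at least 2 UMIs of C1qa and C1qb together and no Cd3e. In the order Control 1, Control 2, EV 1 and EV 2, which is kept for all values per library, the B cell gate held 3016, 2502, 4866 and 4301 cells. The CD4 gate held 1383, 1624, 923 and 1267 cells, and the CD8 gate 1682, 1861, 1003 and 1355. The macrophage gate held only 42, 80, 91 and 67 cells. Levels of markers that the gates did not use were read in each gate. The 6 other B cell markers summed to 4504 to 5014 counts per 1000000 (CPM) in B cells and to at most 33.5 CPM in either T cell gate, and Cd8b1 stood at 916, 931, 849.8 and 899 CPM in CD8 T cells against at most 19.6 CPM in CD4 T cells. Markers of other cell types differed between the groups in the B cell gate. Its 5 T cell markers summed to 71.1, 62.7, 41.1 and 42.0 CPM, with Cd3g and Trac called lower in EV, as were Cd8b1 and the dendritic cell marker Flt3. The 3 dendritic cell markers, Flt3 among them, summed to 21.993, 16.727, 12.58 and 21.023 CPM in that gate, where the groups overlapped. The 3 neutrophil markers summed to 0.358, 0.147, 3.80 and 8.28 CPM there, with S100a8 and S100a9 called higher. Its 7 macrophage markers summed to 187, 224, 314 and 217 CPM, where the groups overlapped, and Lyz2 (31.9, 29.9, 71.8 and 45.5 CPM) was called higher. Xbp1 and Bst2, from the plasma cell and plasmacytoid dendritic cell lists, were also called higher in B cells, and Bst2 in CD8 T cells. The other genes of these lists, Jchain, Sdc1 and Siglech, were not called in B cells. Siglech, from the same list as Bst2, stood at 7.24, 3.32, 3.96 and 2.52 CPM in B cells and was not tested in CD8 T cells. In CD4 T cells the 6 B cell markers summed to 13.3, 10.5, 23.7 and 18.1 CPM, and none was called. The 3 neutrophil markers summed to 0.222, 0, 32.3 and 0.890 CPM there and were not tested. The part of these shifts in the chaperone values was not tested. In the macrophage gate the 7 macrophage markers summed to 40237 and 35352 CPM in Control and to 20170 and 14413 CPM in EV, and the B cell markers to 1357 and 1358 against 2493 and 2643 CPM, so that macrophage results below were measured in cells whose marker levels also differed. Most of the macrophage marker sum came from Lyz2 (19715, 18231, 11398 and 8089 CPM) and Apoe (17706, 15214, 7341 and 4926 CPM). Of the macrophage markers only Apoe was called lower in that gate. C1qc was lower in both EV libraries than in both Control libraries, and the groups overlapped for Cd68, Csf1r, Adgre1 and Mertk.

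UMIs were summed over the cells of a gate in each library, and EV was compared with Control by edgeR's quasi-likelihood test with Benjamini-Hochberg adjustment over all genes tested in the gate. A gene was called when its adjusted p was below 0.05. CPM are relative to the TMM-scaled total of the gate, and a log2 fold change is EV over Control. The 4 gates come from the same 4 libraries and are therefore not independent of each other. Fewer transcripts in each cell and fewer cells that express a gene within a gate cannot be told apart in these sums.

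Summed over all 67 members, chaperone transcripts took a larger share of the mRNA in the EV libraries. In B cells the 67 members together made up 37.6 and 40.4 UMIs per 10000 in Control against 52.7 and 55.0 in EV, a ratio of group means of 1.38. The shares in CD4 T cells were 42.3, 43.3, 57.0 and 63.9, with a ratio of 1.41. In CD8 T cells they were 48.0, 48.6, 62.1 and 67.5, with a ratio of 1.34. Macrophages had 47.8, 45.6, 68.9 and 63.9, with a ratio of 1.42. Each EV library exceeded each Control library in every gate. For the 8 members called in CD8 T cells, named below, the ratios were 1.705, 1.71, 1.58 and 1.47 in that order of gates. All other members together gave 1.03, 1.05, 1.05 and 1.33. The 8 were set apart by their calls in these same data. With 2 libraries a group the exact permutation test (two-sided) reaches at best p = 0.33, so it was not used on these sums.

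The difference was uneven over the families. HSP70 UMIs, mostly from Hspa8, went from 5.61 and 6.08 per 10000 in the Control B cells to 11.1 and 12.0 in the EV B cells. HSP90 UMIs went from 9.87 and 11.3 to 15.3 and 16.2 in the same gate. The DNAJC family, which has the most members, gave in B cells 11.3, 11.7, 11.5 and 12.1 per 10000, where the groups overlapped. Over the 3 lymphocyte gates the ratio of EV to Control means was 1.67 to 1.98 for HSP70 and 1.48 to 1.68 for HSP90. It was 1.46 to 1.48 for DNAJA, 1.37 to 1.49 for HSP60 and HSP10 together, and 1.22 to 1.32 for HSP110. It was 1.03 to 1.10 for DNAJB and 1.03 to 1.04 for DNAJC. HSPB had ratios of 0.838 to 1.03, from under 0.5 UMIs per 10000.

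Of the 67 members, 54 had enough counts to be tested in at least 1 gate. In B cells 52 were tested and 8 were called higher in EV, against 1.61% of all 13270 genes tested. They were Hspa8, Hsph1, Hsp90aa1, Hsp90ab1, Dnaja1, Dnajb1, Hspd1 and Hspe1. In CD4 T cells 49 were tested, and 7 were called higher, against 0.872% of 11933 genes. These were the genes just named without Dnajb1. In CD8 T cells 51 were tested, and the 8 genes named for B cells were called higher, against 1.34% of 12284 genes. No member was called lower in any gate by edgeR or DESeq2, and 0, 1, 1 and 1 members in B, CD4 T and CD8 T cells and macrophages had a lower value at an unadjusted p under 0.05 by edgeR. Of all genes, 1.04%, 0.335%, 0.871% and 0.0286% were called lower in these gates. The share of all genes at an unadjusted p under 0.05 was not counted, here or for the counts at that threshold below. The median log2 fold change over the tested members was 0.11, 0.10 and 0.10 in B, CD4 T and CD8 T cells, and the medians over all tested genes were 0.00 in all 3. The number called depended on single libraries. Without Control 1 or Control 2 fewer members were called in B cells, and without EV 1 more were called in B, CD4 T and CD8 T cells. The number of all genes called higher moved the same way in each case.

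In macrophages 20 members were tested and none was called by edgeR, against 0% of 3497 genes called higher. DESeq2 called 0 there, and 3 members had an unadjusted p under 0.05 by edgeR. Groups that did not overlap were common among all genes. The EV values lay above both Control values for 23 of 52 members in B cells (25.6% of all genes), 21 of 49 in CD4 T cells (24.2%), 24 of 51 in CD8 T cells (24.4%) and 9 of 20 in macrophages (20.9%). They lay below both Control values for 8, 6, 8 and 1 members in these gates. The share of all genes in that direction was not counted.

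**Figure D1:**
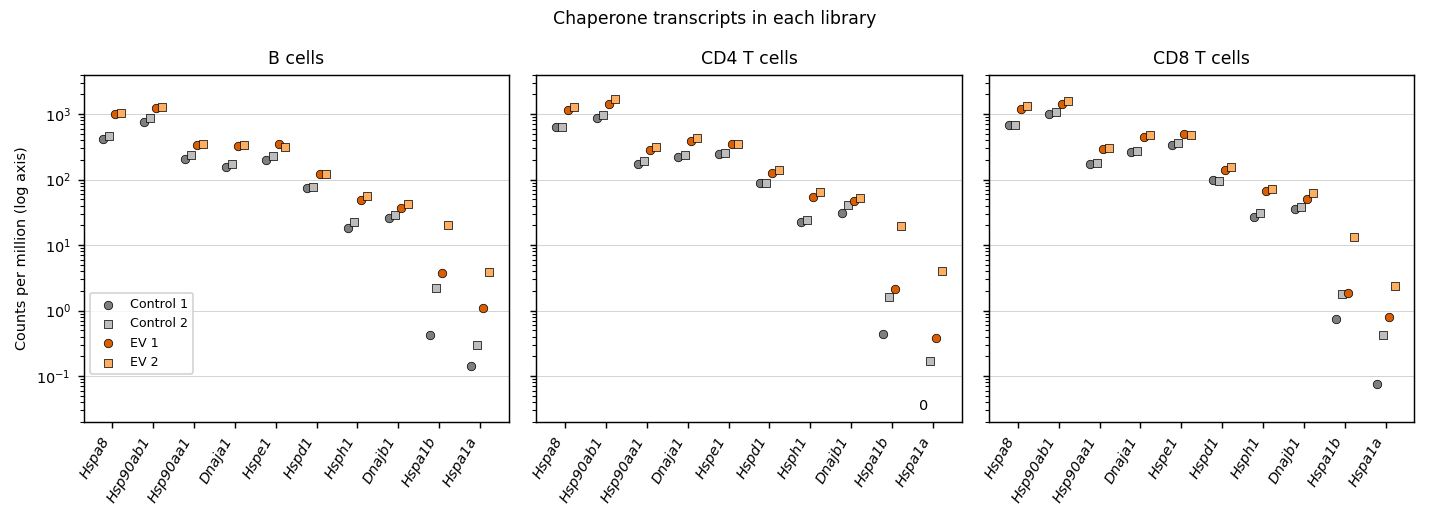
CPM (counts per 1000000, log axis) of 10 members in the sums of B cells, CD4 T cells and CD8 T cells of each library, 1 point per library, with grey for Control and orange for EV and a 0 where no UMI was found. The 10 are the 8 called members and Hspa1a and Hspa1b, which had the largest fitted changes. Both EV points lie above both Control points for all 10 in the 3 gates, which is tied to how they were picked. Of all genes tested in B, CD4 T and CD8 T cells, 25.6%, 24.2% and 24.4% were separated in this way. EV 2 stands far above EV 1 for Hspa1b and Hspa1a.

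Hsph1, an HSP110 nucleotide exchange factor of HSP70, had the largest log2 fold change among the called members in each lymphocyte gate. Its level in B cells was 18.2, 22.7, 48.4 and 56.5 CPM, a log2 fold change of 1.36 ± 0.13 (SE, n = 2 and 2 libraries, edgeR adjusted p = 0.0028). Its level in CD4 T cells was 22.2, 23.8, 54.9 and 63.4 CPM, a log2 fold change of 1.36 ± 0.11 (edgeR adjusted p = 0.000824). The EV libraries stood at more than double the Control level in both gates, with no overlap. The CD8 T cells had 27.0, 31.2, 67.7 and 71.8 CPM, a log2 fold change of 1.26 ± 0.10 (edgeR adjusted p = 0.000145). As a fold change, the rise in CD8 T cells was 2.40, with a 95% interval from 2.07 to 2.77.

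The other HSP110 genes were not called. Hspa4 stood at 162, 171, 186 and 182 CPM in B cells, with a log2 fold change of 0.14 and a 95% interval from -0.04 to 0.33. Its interval in CD4 T cells ran from -0.14 to 0.24 and in CD8 T cells from 0.00 to 0.33, so that a rise of the size seen in Hsph1 lies outside all 3 intervals. Hspa4l had its highest value in CD4 T cells, a log2 fold change of 0.41 that was not called.

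Promoter sequences were read for the heat shock element, the site of HSF1, because several of the called genes are known HSF1 targets. RefSeq promoters (GRCm38.p6, 250 bases before to 50 after a start site) matched 53 of the 67 members and 5 of the 8 called ones, Hsph1, Hspd1, Hspe1, Dnaja1 and Dnajb1. Pairs of alternating units were searched as GAANNTTC or TTCNNGAA, and 3 as GAANNTTCNNGAA or TTCNNGAANNTTC, on both strands. A run of 3 units holds 2 overlapping matches of 2 units. Runs of 3 units were found in 0.603% of all 32851 promoters and in 8.57% of the 70 member promoters, those of Hsph1, Hspd1, Hspe1 and Dnajb6. Matches of 2 units were found in 15.1% of all promoters and 25.7% of the member promoters. Hspd1 and Hspe1 lie head to head on chromosome 1 and share their element, and 1 of the 4 members with a run, Dnajb6, was not called in any gate.

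The promoters of 3 genes with the clearest elements or the largest fitted changes and of Dnaja1 are printed 5′ to 3′ on the strand of the gene, with every match of 2 units in capitals. Hsph1 lies at chr5:149636266-149636565 on the reverse strand, Hspe1 at chr1:55087898-55088197 on the forward strand, Hspa1b at chr17:34959189-34959488 on the reverse strand and Dnaja1 at chr4:40722218-40722517 on the forward strand. The run of Hsph1 begins 15 bases after this start site, and those of Hspe1 begin 89 and 84 bases before it. Hspa1b, like Hspa1a, has 1 match of 2 units. Dnaja1 has 3 entries, of which only the one printed holds a match, also of 2 units. The 2 entries of Dnajb1 hold none.
Hsph1: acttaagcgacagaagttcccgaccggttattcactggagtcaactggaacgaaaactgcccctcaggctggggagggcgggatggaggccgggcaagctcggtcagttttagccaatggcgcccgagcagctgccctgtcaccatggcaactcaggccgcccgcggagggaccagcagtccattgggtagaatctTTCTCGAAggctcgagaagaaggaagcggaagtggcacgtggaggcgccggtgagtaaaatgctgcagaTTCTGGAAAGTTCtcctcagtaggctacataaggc
Hspe1: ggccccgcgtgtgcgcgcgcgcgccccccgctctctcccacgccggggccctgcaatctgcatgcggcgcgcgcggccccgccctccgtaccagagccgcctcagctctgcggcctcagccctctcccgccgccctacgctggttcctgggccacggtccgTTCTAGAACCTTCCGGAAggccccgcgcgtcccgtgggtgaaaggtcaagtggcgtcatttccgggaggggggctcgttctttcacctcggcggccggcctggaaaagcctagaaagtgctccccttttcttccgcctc
Hspa1b: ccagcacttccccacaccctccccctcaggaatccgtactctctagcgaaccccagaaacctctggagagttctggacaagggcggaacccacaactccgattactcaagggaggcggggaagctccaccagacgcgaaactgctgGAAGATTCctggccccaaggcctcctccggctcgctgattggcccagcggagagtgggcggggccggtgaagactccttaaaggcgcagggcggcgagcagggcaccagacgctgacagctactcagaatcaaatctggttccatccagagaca
Dnaja1: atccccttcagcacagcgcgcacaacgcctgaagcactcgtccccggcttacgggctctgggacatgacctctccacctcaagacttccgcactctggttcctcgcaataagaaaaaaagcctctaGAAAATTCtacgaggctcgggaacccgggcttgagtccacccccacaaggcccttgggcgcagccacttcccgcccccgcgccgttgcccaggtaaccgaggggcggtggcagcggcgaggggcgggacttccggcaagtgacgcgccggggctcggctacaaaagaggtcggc

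Hspa8, the constitutive cytosolic HSP70 (HSC70), rose in the 3 lymphocyte gates. In B cells its level was 414, 462, 991 and 1049 CPM, a log2 fold change of 1.22 ± 0.11 (edgeR adjusted p = 0.00267). Levels in CD4 T cells were 623, 633, 1138 and 1283 CPM, a log2 fold change of 0.95 ± 0.10 (edgeR adjusted p = 0.00499). Control libraries lay close together and both EV libraries far above them. Those in CD8 T cells were 689, 689, 1173 and 1307 CPM, with a log2 fold change of 0.85 ± 0.09 (edgeR adjusted p = 0.000735). Of the 411 windows of 90 bases in the last 500 bases of its transcript, 79.8% also occur in transcripts of 8 other annotated genes, so its count depends on how reads shared with these copies were treated. Without Control 1 the log2 fold change in B cells was 1.15 and was no longer called. Hspa8 lies on chromosome 9 (GRCm38, 40800984 to 40810087, forward strand).

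Hspa1a and Hspa1b, the strictly inducible HSP70 genes, had the largest fitted changes of all members and were not called in the comparison described above. With replicate number added to the fit as a block, Hspa1b was called in each lymphocyte gate and Hspa1a in B and CD8 T cells. With thinned cells Hspa1b was called in B cells. The genes lie side by side on chromosome 17, at 34969190 to 34972156 and 34956436 to 34959238 on the reverse strand. Hspa1b had 6, 30, 113 and 522 UMIs in B cells, or 0.430, 2.21, 3.70 and 19.9 CPM, with a log2 fold change of 3.15 ± 0.87 (edgeR adjusted p = 0.1). In CD4 T cells it had 4, 19, 17 and 195 UMIs, with a log2 fold change of 3.34 ± 0.84 (edgeR adjusted p = 0.0852). In CD8 T cells it had 10, 30, 19 and 173 UMIs, with a log2 fold change of 2.57 ± 0.66 (edgeR adjusted p = 0.0634).

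EV 2 was the highest library for Hspa1b in each gate, and Control 2 held more of it than Control 1. Without EV 2 the log2 fold change of Hspa1b was 1.49, 0.97 and 0.49 in B, CD4 T and CD8 T cells, and without EV 1 it was 3.92, 4.12 and 3.31. All of the latter were called, and so were the B cell value without EV 2 and those in CD4 and CD8 T cells without Control 1 (2.77 and 2.12) or Control 2 (4.60 and 3.35). Hspa1a showed the same order at lower counts, with 2, 4, 33 and 102 UMIs in B cells (log2 fold change 3.44 ± 0.91, edgeR adjusted p = 0.0907) and 1, 7, 8 and 31 in CD8 T cells. Hspa1a was called in both gates without EV 1 (4.12 and 3.12) and in CD8 T cells without Control 2 (4.27). In CD4 T cells it had 0, 2, 3 and 40 UMIs and was not tested. No window of 90 bases in the last 500 bases of either transcript occurs in another gene, so reads from the 3′ ends can separate the pair.

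The remaining HSP70 genes were not called. Hspa9, the mitochondrial HSP70, stood at 75.2, 70.5, 73.7 and 73.1 CPM in B cells, where the groups overlapped and the interval of the log2 fold change ran from -0.17 to 0.20. In CD4 T cells it stood at 82.7, 73.6, 81.3 and 85.9 CPM, with an interval from -0.11 to 0.31. The CD8 T cells gave 82.2, 80.5, 87.0 and 91.2 CPM, with an interval from -0.04 to 0.30. Changes as large as those of Hspa8 lie outside these intervals. Hspa14, an HSP70 that works at the ribosome, had log2 fold changes of 0.16, 0.31 and 0.10 in B, CD4 T and CD8 T cells, and was called in CD4 T cells only without EV 1 (0.34).

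Both cytosolic HSP90 genes rose. Hsp90ab1, the constitutive form (chromosome 17, 45567775 to 45573271, reverse strand), stood at 763, 880, 1223 and 1298 CPM in B cells, a log2 fold change of 0.62 ± 0.12 (edgeR adjusted p = 0.0406). It stood at 863, 961, 1432 and 1694 CPM in CD4 T cells, a log2 fold change of 0.78 ± 0.12 (edgeR adjusted p = 0.0113). The level in CD8 T cells was 1006, 1054, 1426 and 1597 CPM, a log2 fold change of 0.55 ± 0.10 (edgeR adjusted p = 0.0179). The groups did not overlap, and EV 2 was the highest library in each gate. Calls were lost without Control 1 in all 3 gates, at log2 fold changes of 0.52, 0.70 and 0.52 in B, CD4 T and CD8 T cells, and without Control 2 in B (0.73) and CD8 T cells (0.59).

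Hsp90aa1, the form that stress induces (chromosome 12, 110690605 to 110702728, reverse strand), gave 205, 234, 339 and 348 CPM in B cells, a log2 fold change of 0.64 ± 0.10 (edgeR adjusted p = 0.0151). It gave 174, 191, 280 and 312 CPM in CD4 T cells, a log2 fold change of 0.70 ± 0.09 (edgeR adjusted p = 0.00709). CD8 T cells had 173, 181, 295 and 305 CPM, a log2 fold change of 0.76 ± 0.08 (edgeR adjusted p = 0.000498). Here, too, both EV libraries exceeded both Control libraries, and the EV libraries lay close together in B and CD8 T cells. Without Control 1 or Control 2 the B cell values of 0.55 and 0.75 were not called.

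Among the J-domain proteins, Dnaja1 and Dnajb1 were called. Dnaja1, a cytosolic partner of HSP70 (chromosome 4, 40722150 to 40737149, forward strand), stood at 157, 175, 327 and 334 CPM in B cells, a log2 fold change of 0.99 ± 0.09 (edgeR adjusted p = 0.00267). The CD4 T cell values were 220, 239, 390 and 432 CPM, a log2 fold change of 0.84 ± 0.09 (edgeR adjusted p = 0.00499). The CD8 T cell values were 264, 269, 443 and 473 CPM, a log2 fold change of 0.78 ± 0.08 (edgeR adjusted p = 0.000498). The groups did not overlap in any of the 3 gates. Its relative Dnaja2, which also works with cytosolic HSP70, had log2 fold changes of only 0.11, 0.10 and 0.13, none of them called, and the 95% intervals ended at 0.29 in each gate.

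Dnajb1 (HSP40), the inducible J-domain partner of HSP70 (chromosome 8, 83608193 to 83612653, forward strand), stood at 25.5, 29.2, 36.7 and 42.8 CPM in B cells, a log2 fold change of 0.54 ± 0.11 (edgeR adjusted p = 0.0478). In CD8 T cells it stood at 35.1, 37.8, 51.0 and 63.3 CPM, a log2 fold change of 0.65 ± 0.11 (edgeR adjusted p = 0.0124). In CD4 T cells the values were 30.7, 41.3, 46.7 and 52.4 CPM and the log2 fold change of 0.46 ± 0.14 was not called (edgeR adjusted p = 0.138). Control 2 came close to EV 1 in that gate, and without Control 1 the CD4 log2 fold change was 0.27, against called values of 0.70, 0.54 and 0.37 without Control 2, EV 1 and EV 2. In B cells the values of 0.45 and 0.64 without Control 1 and Control 2 were not called. Of the 11 DNAJB genes 8 were tested in each lymphocyte gate. Dnajb6, which suppresses aggregation, had log2 fold changes of 0.10, 0.07 and 0.11 and was not called.

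None of the DNAJC genes was called in any gate by edgeR or DESeq2, with 23, 23 and 24 of 27 tested in B, CD4 T and CD8 T cells. At an unadjusted p under 0.05 by edgeR, 2, 1, 2 and 1 were higher in B, CD4 T and CD8 T cells and macrophages, and 0, 0, 1 and 1 lower. Their log2 fold changes ran from -0.23 to 0.61, -0.33 to 0.30 and -0.43 to 0.56, with medians of 0.03, 0.05 and 0.03, in the 3 lymphocyte gates. Dnajc1, a membrane protein of the endoplasmic reticulum, had the most counts and gave 0.18, 0.14 and 0.14. With EV 1 left out Dnajc1 was called in the 3 gates at 0.36, 0.26 and 0.25, and with EV 2 left out it gave -0.03, 0.03 and 0.03.

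The mitochondrial chaperonin rose with both of its parts. Hspd1 (HSP60) stood at 75.4, 77.4, 123 and 122 CPM in B cells, a log2 fold change of 0.68 ± 0.08 (edgeR adjusted p = 0.00579). Among CD4 T cells it stood at 89.1, 89.0, 125 and 142 CPM, a log2 fold change of 0.58 ± 0.09 (edgeR adjusted p = 0.0155). CD8 T cells had 97.8, 96.1, 141 and 154 CPM, a log2 fold change of 0.60 ± 0.08 (edgeR adjusted p = 0.00305). The Control libraries were nearly equal in all 3 gates. Without Control 1 the B cell value of 0.66 was not called.

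Hspe1 (HSP10), the lid of the chamber, stood at 200.4, 231, 343 and 315 CPM in B cells, a log2 fold change of 0.61 ± 0.10 (edgeR adjusted p = 0.0208). It stood at 249, 258, 343 and 343 CPM in CD4 T cells, a log2 fold change of 0.44 ± 0.08 (edgeR adjusted p = 0.0349). CD8 T cells gave 335, 360, 491 and 471 CPM, a log2 fold change of 0.47 ± 0.08 (edgeR adjusted p = 0.0141). Without Control 1 none of these values was called (0.51, 0.41 and 0.42 in B, CD4 T and CD8 T cells), nor were those of B (0.72) and CD4 T cells (0.47) without Control 2. The 2 genes are transcribed away from a shared start region on chromosome 1 (55077835 to 55088243, reverse, and 55088132 to 55091307, forward). Of the 411 windows of 90 bases in the last 500 bases of the Hspe1 transcript, 36.0% also occur in 1 other annotated gene. The Hspe1 count therefore depends on how shared reads were treated.

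The small heat shock proteins were scarce. Hspb1 had 0 to 10 UMIs in any library of any gate and was not tested. Hspb3 and Hspb8 had 0 of 177595568 UMIs in the 4 gates together, which allows a level of up to 0.0169 CPM, a limit that covers counting error only. Hspb11, a cilium protein that carries the family's name, was the HSPB member with the most counts. Its log2 fold changes of 0.11, -0.23 and -0.16 in B, CD4 T and CD8 T cells were not called. The 13 members that were tested in no gate had at most 43 UMIs over all libraries and gates.

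**Figure D2:**
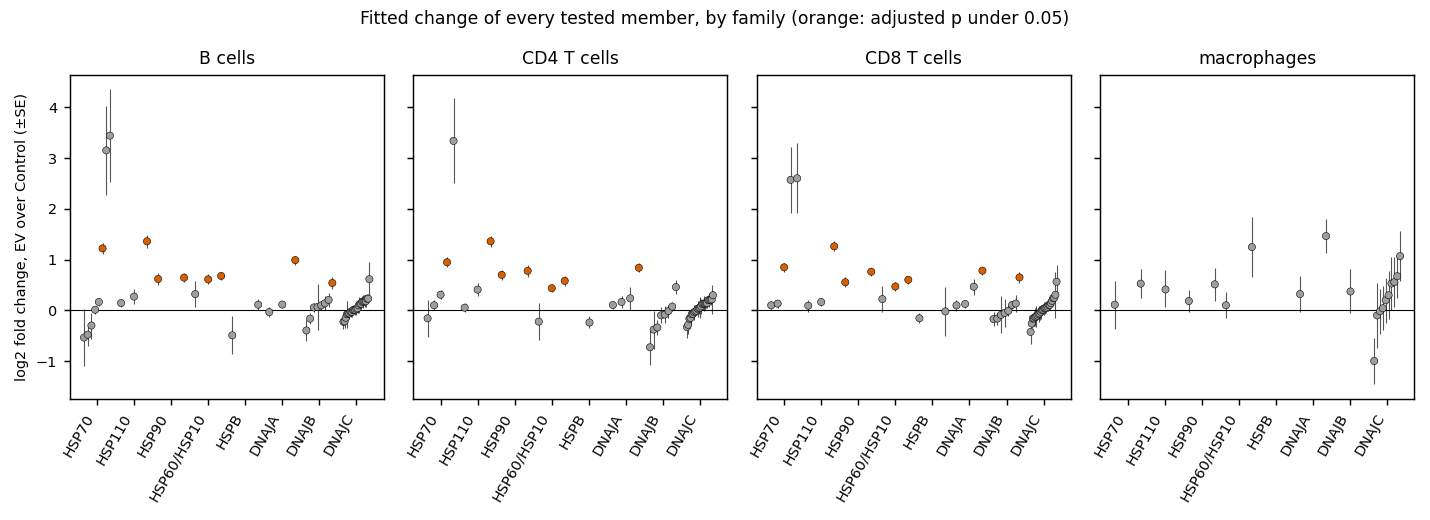
Log2 fold change of EV over Control (points, bars ± SE of the fit) for each tested member, grouped by family along the horizontal axis, with 1 panel per gate and called members in orange. The called members lie between 0.44 and 1.36 in the HSP70, HSP110, HSP90, HSP60 and HSP10, DNAJA and DNAJB columns of the lymphocyte panels. The points above 2.5 with long bars are Hspa1a and Hspa1b. In the lymphocyte panels the DNAJC points gather around 0.

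In macrophages the sums rested on few UMIs, and values for single members were wide. Dnaja1 stood at 189, 178, 566 and 437 CPM, from 11 to 136 UMIs per library, with a log2 fold change of 1.46 ± 0.33 that was not called (edgeR adjusted p = 0.219). Hspa8 stood at 1168, 871, 1794 and 1080 CPM, where EV 2 fell between the Control libraries, with a log2 fold change of 0.53 ± 0.28 that was not called either. Hsp90ab1 stood at 1511, 1406, 1594 and 1707 CPM, with a 95% interval of the log2 fold change from -0.28 to 0.64. That interval includes the values fitted in B and CD8 T cells. Hspd1 had no UMI in Control 1, where 3 UMIs would be 51.5 CPM, and 130, 158 and 267 CPM in the other libraries, and the log2 fold change of 1.25 ± 0.59 was not called. Of these cells 5, 10, 20 and 16 also carried Cd79a. With those left out, 16 members were tested and none was called by edgeR, with 1 higher and 1 lower at an unadjusted p under 0.05. Dnaja1 was called without Control 1 (1.497), and Hspd1 was called without Control 2, where the only Control library left had no UMI of it. Whether the differing B cell and macrophage marker levels of the gate play a part in these values was not tested.

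The effect of EV was also compared between gates, in 1 fit over the 16 sums with library as a block. Of 54 members tested in each contrast, edgeR called none for B cells minus CD4 T cells (1.6% of 14043 genes called), CD8 minus CD4 T cells (0.107%) or macrophages minus CD4 T cells (0.0356%). In these contrasts 5, 2 and 6 members had an unadjusted p under 0.05 by edgeR, a threshold to which the percentages do not refer. The log2 fold change of Hspa8 was larger by 0.27 ± 0.13 in B than in CD4 T cells (edgeR adjusted p = 0.437). For Hsp90ab1 the difference of CD8 minus CD4 T cells was -0.23 ± 0.07 (edgeR adjusted p = 0.546). The difference of Dnaja1 between macrophages and CD4 T cells was 0.85 ± 0.27 (edgeR adjusted p = 0.407). The filter on counts in this fit ran over all gates, whereas only 20 members had enough counts to be tested in macrophages alone. The macrophage contrast could therefore hardly call many of the 54. Hspa1a, for example, had a difference of 5.3 ± 12.6 there. These tests do not show that the gates responded alike.

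The summed level could come from a few cells or from most of them, so each cell was thinned to 1000 UMIs and the member UMIs in it were counted. Macrophages lost 18, 37, 30 and 23 cells that were too shallow. The mean per B cell was 3.73, 3.92, 5.22 and 5.47 member UMIs, and the median 3, 4, 5 and 5. The mean per CD4 T cell was 4.2, 4.26, 5.65 and 6.49, and per CD8 T cell 4.67, 4.78, 6.19 and 6.83. In B cells both ends of the distribution moved. Cells with 10 or more member UMIs made up 1.86%, 2.37%, 8.50% and 9.73% of B cells, and cells with none 3.22%, 2.49%, 1.59% and 1.30%. Cells with at least 5 member UMIs made up 40.9%, 41.6%, 59.6% and 72.9% of CD4 T cells. Macrophages gave means of 4.58, 5.14, 7.49 and 6.86 member UMIs, from 24, 43, 61 and 44 cells.

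**Figure D3:**
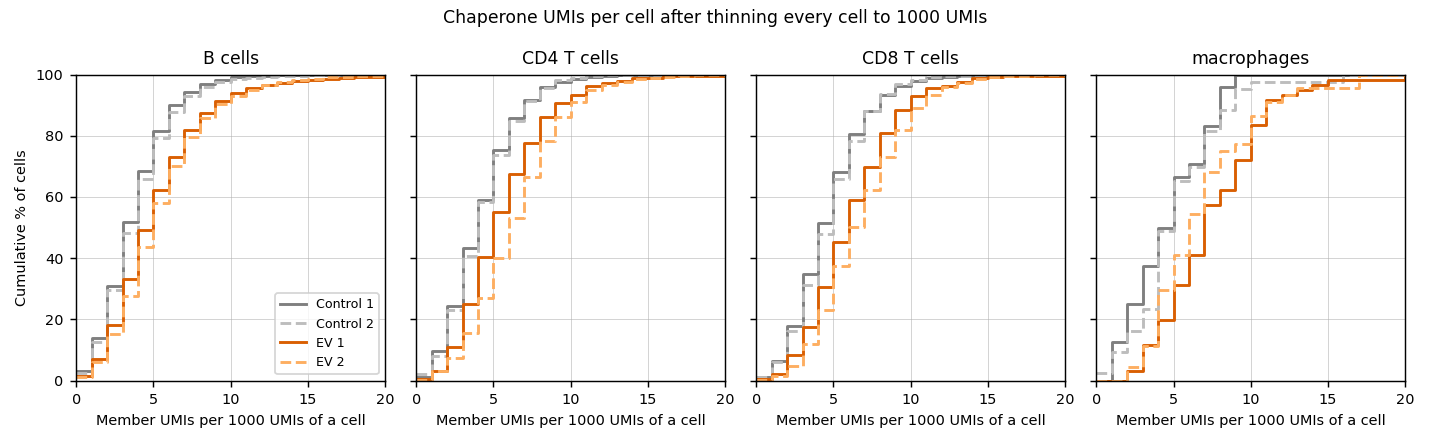
Cumulative percentage of cells (vertical axis) with up to a given number of member UMIs per 1000 UMIs (horizontal axis) after thinning, 1 line per library (solid for replicate 1, dashed for replicate 2; grey Control, orange EV) and 1 panel per gate. The EV lines run to the right of the Control lines in all 4 panels, with medians of 3 to 5 in Control and 5 to 6 in EV lymphocytes.

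Genes that work with these chaperones were read from lists of non-members. Of 36 HSP90 and HSP70 co-chaperones and HSF genes, 8 of 34 tested were called higher in B cells, 7 of 34 in CD4 T cells and 8 of 35 in CD8 T cells, against 1.61%, 0.872% and 1.34% of all genes tested in these gates. The median log2 fold change of the list was 0.13, 0.11 and 0.11. Stip1 (HOP), which hands clients from HSP70 to HSP90, stood at 50.1, 48.3, 82.0 and 102.4 CPM in CD4 T cells, a log2 fold change of 0.91 ± 0.11. In the same cells Chordc1, an HSP90 co-chaperone, gave 0.75 ± 0.09, Fkbp4, an immunophilin of HSP90, 0.71 ± 0.09, and Ahsa1, which speeds its ATP cycle, 0.69. Cacybp gave 0.64 and Ahsa2 gave 0.82, and all 6 were called in the 3 lymphocyte gates. The transcript of Hsf1 itself stood at 19.7, 22.1, 19.9 and 25.9 CPM in CD4 T cells, where the groups overlapped, and was not called in any gate.

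Of the 15 TRiC chaperonin and prefoldin genes, which fold actin and tubulin, 2, 1 and 3 were called higher in B, CD4 T and CD8 T cells, where all 15 were tested and the shares of all genes are the 1.61%, 0.872% and 1.34% just given. The median log2 fold change was 0.18, 0.19 and 0.20. Cct3 was called in the 3 gates at 0.45, 0.47 and 0.52, and the next by p-value in CD4 T cells, Cct4, Cct8, Tcp1, Cct5 and Cct7, gave 0.22 to 0.30 there without being called. A list of 18 genes of the endoplasmic reticulum held chaperones and also Herpud1 and Xbp1, which are not chaperones. Of the 18, 5, 0 and 3 were called higher by edgeR in B, CD4 T and CD8 T cells. All 18 were tested in each of these gates, against the same shares of all genes. In CD4 T cells 5 were higher at an unadjusted p under 0.05 by edgeR. Hsp90b1 (GRP94) gave log2 fold changes of 0.49, 0.41 and 0.48, called in B and CD8 T cells, and Hspa5 (BiP) 0.37, 0.31 and 0.40, called in CD8 T cells. Calr gave 0.61, 0.47 and 0.47 and was called in CD8 T cells. Dnajb9, a J-domain partner of BiP, gave -0.32, -0.65 and -0.56 and was not called, Pdia3 gave 0.42, 0.27 and 0.27 without a call, and Xbp1 was called in B cells at 0.50.

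**Figure D4:**
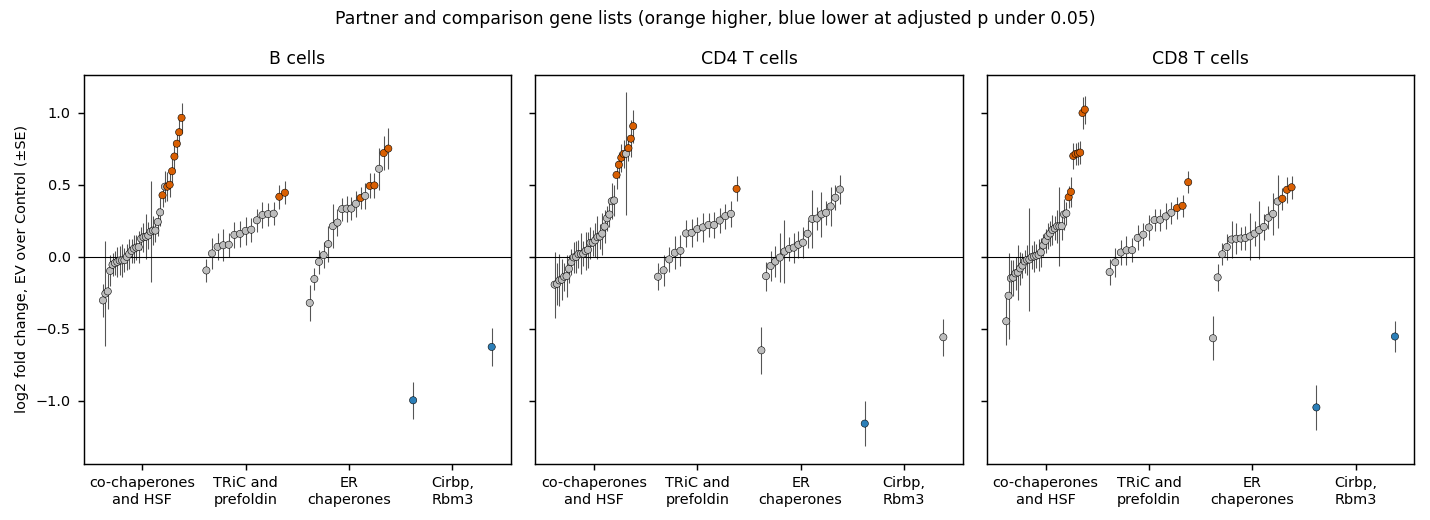
Log2 fold change of EV over Control (points, bars ± SE of the fit) for the tested genes of 4 lists in the 3 lymphocyte gates, with called genes in orange (higher) and blue (lower). The co-chaperone list has 7 or 8 called genes per gate and most of its other genes near 0, and Cirbp and Rbm3 lie below 0 in each panel.

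Transcripts that can vary with handling and RNA quality were read as well, and only some of them differed between the groups. The transcripts of Cirbp and Rbm3, RNA-binding proteins that cells make in the cold and reduce on warming, were lower in EV. Cirbp stood at 104, 96.9, 54.5 and 36.1 CPM in CD4 T cells, a log2 fold change of -1.16 ± 0.16 (edgeR adjusted p = 0.00708), and was also called lower in B cells (-0.995) and CD8 T cells (-1.04). Rbm3 was called lower in B and CD8 T cells at -0.63 and -0.55 and was not called in CD4 T cells (-0.56). EV 2 was the lowest library for both genes in these gates. A list of 16 immediate early genes that cell dissociation induces had none called higher by edgeR (1 in each gate at an unadjusted p under 0.05), and 2, 1 and 2 called lower in B, CD4 T and CD8 T cells, Klf6 in each and Egr1 in B and CD8 T cells, against 1.04%, 0.335% and 0.871% of all genes called lower. Its median was 0.01, 0.00 and -0.04, and of the genes with the smallest p-values in CD4 T cells Jun, Nr4a1, Ier5, Nfkbia and Fosb were not called. The median mitochondrial share of kept cells was 3.05%, 2.94%, 3.26% and 3.59%. Depth per cell was higher in both EV libraries in every gate. Median UMIs per cell were 4142, 4905, 5811 and 5615 in B cells and 6046, 6984, 8339 and 7551 in CD4 T cells. They were 7397, 8565, 9871 and 9110 in CD8 T cells and 1100, 1114, 1456 and 1387 in macrophages. Gm42418, a transcript that overlaps ribosomal RNA, stood at 8464, 9994, 5582 and 715 CPM in CD4 T cells, lowest in EV 2. It was not called in any gate. Their part in the chaperone values was not tested.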

How the data were processed

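Per library, the authors made a matrix of raw UMI counts (genes by barcodes) with Cell Ranger 7.1.0 on mm10, per the submitters' processing notes, and deposited these counts without normalization and before their filters on cells. The annotation release is not given in the sources used here. The filters on cells were those of the study: between 200 and 5000 genes, no more than 20000 UMIs, and mitochondrial and ribosomal protein shares of less than 10% and 60%. No doublets were removed, and libraries shared 12 to 26 barcodes. A cell of the macrophage gate could also enter the B cell gate (5 to 20 cells per library).

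Counts were summed per library and gate and tested with edgeR 4.0.16 (glmQLFit, TMM, filterByExpr, two-sided, R 4.3.3) in fits per gate, 2 libraries against 2. The code was tested on simulated data. DESeq2 1.42.0, no filterByExpr, library sizes over other genes, a replicate block, thinned cells, other cell filters, Scrublet doublet removal, Cd79a-free macrophages and each library left out were alternatives, and an earlier quasi-likelihood version was added after seeing the data. Gene positions came from GENCODE M21 (GRCm38), and all 67 members matched. Hspa8, Hsp90aa1 and Hsp90ab1 had no promoter entry. Values per library were given for 13 members and any other called at a log2 fold change of 0.5 or more, values in words for the member with the most counts in each of 5 families, and for other lists the 6 genes with the smallest p in CD4 T cells. Members and lists were chosen with earlier results of these data known. The authors' Wilcoxon comparison of cells was not used. The values of 1 member are not reported here.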

Additional observations from a re-analysis of the deposited data

How the results depend on the processing

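The 23 called values (8, 7 and 8 members in B, CD4 T and CD8 T cells) gave 299 values over the alternative settings. All were positive, from 0.39 to 1.64 on the log2 scale, and not all stayed past the threshold. The alternatives reused the same libraries and are not independent of each other. Leaving out 1 library in turn, where the lone library is assumed to vary like the other group, gave 2 to 16 members called higher in B cells, 7 to 15 in CD4 T cells, 7 to 13 in CD8 T cells and 0 to 1 in macrophages, and 0 to 1 called lower in CD4 T cells (Dnajb4 without EV 2) and in CD8 T cells (Dnajc10 without EV 1). B cells had 2 calls without Control 1 (Dnaja1 and Hsph1), 4 without Control 2 and 16 without EV 1. CD4 and CD8 T cells had 15 and 13 without EV 1. The call in macrophages was Dnaja1 without Control 1 and Hspd1, against a Control library at 0, without Control 2. With no filterByExpr, 2 members were called in B cells (Hspa8 and Dnaja1), 6 in CD4 and 6 in CD8 T cells. Of all genes, 14 of 21630, 62 of 19885 and 45 of 20198 were called higher in that setting. Deviations of same-numbered libraries correlated at 0.020 to 0.135, which with 2 libraries a group cannot decide whether replicate numbers pair the samples. Over all genes, a replicate block took the B cell calls from 214 higher and 138 lower to 598 and 672. The CD4 gate went from 104 and 40 to 412 and 399, and the CD8 gate from 165 and 107 to 498 and 528. Among members the block gave 10, 10 and 10 calls and 1 in macrophages (Dnaja1). Hspa1b was then called in the 3 lymphocyte gates and Hspa1a in B and CD8 T cells. In B cells both genes were also called with no filter on cells or the 5% mitochondrial limit, and Hspa1b with thinned cells. The 5% setting did more than tighten the mitochondrial limit. For EV 1 B cells it held 31902084 UMIs in 4654 cells, against 31173989 in 4866 with the study's filters. It therefore also let in barcodes that those filters left out. Which of these changes led to the calls was not tested. In the contrasts between gates edgeR called 0 members in every setting run. A replicate block and DESeq2 were not run for these contrasts.

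Values that changed sign were not called. With thinned cells these were Hspa9 (-0.0452) and Hspb11 (-0.0624) in B cells, Hspa14 (-0.11) and Hspb11 (0.0872) in CD8 T cells and Dnaja2 (-0.69) in macrophages. In macrophages they were also Hspa9 (-0.16) and Hspe1 (-0.13) at the 5% mitochondrial limit, Hspa9 (-0.0233) with the replicate block, Hspe1 (-0.00748) with no filter on cells and Dnaja2 (-0.0128) without Cd79a cells. With 1 library left out, Hspa9 reached -0.0297 to 0.0617 in B cells and -0.49 to 0.54 in macrophages, Hspe1 -0.00459 to 0.27 and Dnajb6 -0.15 to 0.76 in macrophages, Dnajb6 -0.00914 to 0.17 in CD4 T cells and Dnajc1 -0.0274 to 0.36 in B cells. The cause of these shifts was not tested. Only 2 libraries per group and 42 to 91 macrophages per library limit what could be called.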
